A study of Mus musculus with 10 samples.

Results

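Immediate early genes are the set of genes whose transcripts appear first after a cell is stimulated, because the factors that switch them on are already present and need only be phosphorylated. Their products are mostly transcription factors, among them the Fos and Jun proteins that pair to form AP-1, together with phosphatases and other regulators that end the response. In adipose tissue they are known to answer growth factors, adrenergic signals, stretch and the handling of the tissue. The 10 genes described here are Fos, Fosb, Jun, Junb, Egr1, Atf3, Ier2, Ier3, Dusp1 and Nr4a1, chosen by symbol from the 30319 genes with a symbol in the deposited table, and all 10 were found. A total of 9 of the 10 reached 1 TPM (a unit of relative transcript abundance, corrected for transcript length) in at least 2 libraries and were tested, among 16932 genes tested in all. Fosb did not reach that level and is described by its values.

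The study sequenced total RNA, depleted of ribosomal RNA, from the inguinal fat pads of female FVB mice that were wild type or FAP-/-. FAP is fibroblast activation protein, a membrane protease of activated fibroblasts, and the labels do not say which part of the gene is disrupted. All mice ate ingredient-matched diets from 12 to 30 weeks of age, with either 10% or 60% of calories from fat. There were 2 wild-type libraries on the low-fat diet (WT_LFD), 3 FAP-/- libraries on the low-fat diet (Null_LFD), 2 wild-type libraries on the high-fat diet (WT_HFD) and 3 FAP-/- libraries on the high-fat diet (Null_HFD), described by the series as biological replicates.

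Depth is unknown, since TPM values keep no read numbers. Adiponectin (Adipoq) ran from 752 to 3206 TPM over the 10 libraries, so the adipocyte content named by the labels was present in all of them. Fap transcript ran from 37.7 to 68.8 TPM in the 4 libraries of wild-type pads, and from 18.3 to 38.4 TPM in the 6 of FAP-/- pads. The library labelled Null_HFD 2 lay above the library labelled WT_HFD 2. WT_HFD 2 and Null_HFD 3 stood apart: 12 lymph node markers (B cell, T cell and node stroma genes) summed to 1581 and 3552 TPM there, against 23.1 to 71.3 TPM in the other 8 libraries. In bulk tissue, fewer cells of a type and less RNA per cell cannot be told apart.

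Promoter sequences are shown for members whose data are described most closely below, because a response element for the cAMP-regulated factor CREB (CRE) is a textbook feature of genes of this class. RefSeq windows (GRCm38.p6) matched 8 of the 10 members, all but Egr1 and Ier2. In the 250 bases before the start, the CRE core TGACG was found on either strand in 6 of the 8 (Fos, Fosb, Junb, Atf3, Dusp1 and Nr4a1), and in 17.8% of all 32851 windows of the same length. The full palindrome TGACGTCA, which contains the core, was found in Dusp1 alone among the 8 and in 1.55% of all windows. The AP-1 motif TGANTCA and the CArG box of serum response factor were in none of the 8, and in 6.75% and 1.47% of all windows. A match describes letters in a window, not a bound site. Sites farther from the start, or spelled otherwise, were not counted, so no match does not mean no site. The lines below give the 150 bases before the start of 5 members, 5′ to 3′ on the strand of the gene, with the CRE core or its complement CGTCA in capitals.
Fos, chr12:85473740-85473889, plus strand: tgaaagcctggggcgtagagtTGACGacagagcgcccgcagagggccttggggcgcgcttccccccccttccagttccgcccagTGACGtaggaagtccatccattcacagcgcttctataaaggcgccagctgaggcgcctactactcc
Junb, chr8:84978749-84978898, minus strand: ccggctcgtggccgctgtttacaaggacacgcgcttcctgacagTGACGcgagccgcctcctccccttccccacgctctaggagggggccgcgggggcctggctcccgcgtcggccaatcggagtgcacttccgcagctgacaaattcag
Nr4a1, chr15:101266696-101266845, plus strand: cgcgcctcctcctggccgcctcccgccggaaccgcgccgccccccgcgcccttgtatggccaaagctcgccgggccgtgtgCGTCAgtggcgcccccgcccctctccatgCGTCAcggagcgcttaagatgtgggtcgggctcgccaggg
Dusp1, chr17:26508473-26508622, minus strand: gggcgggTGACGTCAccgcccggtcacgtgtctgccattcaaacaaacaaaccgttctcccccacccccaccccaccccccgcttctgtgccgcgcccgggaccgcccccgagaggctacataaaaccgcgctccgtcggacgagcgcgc
Ier3, chr17:35821563-35821712, plus strand: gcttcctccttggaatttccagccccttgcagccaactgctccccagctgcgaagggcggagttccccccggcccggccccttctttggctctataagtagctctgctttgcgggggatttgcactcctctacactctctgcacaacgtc
Fos has the core 129 and 66 bases before the start, Nr4a1 69 and 40 bases before it, Junb 106 bases before it, and Dusp1 the full palindrome 143 bases before it. The printed stretch of Ier3 has no capitals, as neither the core nor its complement is in it.

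By median TPM, Dusp1 was the most abundant member (33.3 TPM over the 10 libraries), followed by Jun (23.1), Ier2 (17.5), Junb (17.4) and Fos (12.6). Atf3 (8.23), Egr1 (8.14), Ier3 (6.03), Nr4a1 (5.51) and Fosb (0.102) were lower. Every neighbouring pair in that order overlapped in its range over libraries, except Nr4a1 and Fosb. The spread within a gene was wide: from the lowest to the highest library the level changed 6.85-fold for Fos, 6.19-fold for Ier2, 5.79-fold for Egr1, 5.24-fold for Atf3 and 4.99-fold for Junb. It changed 4.70-fold for Nr4a1, 2.88-fold for Ier3, 2.79-fold for Dusp1 and 2.64-fold for Jun.

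**Figure D1:**
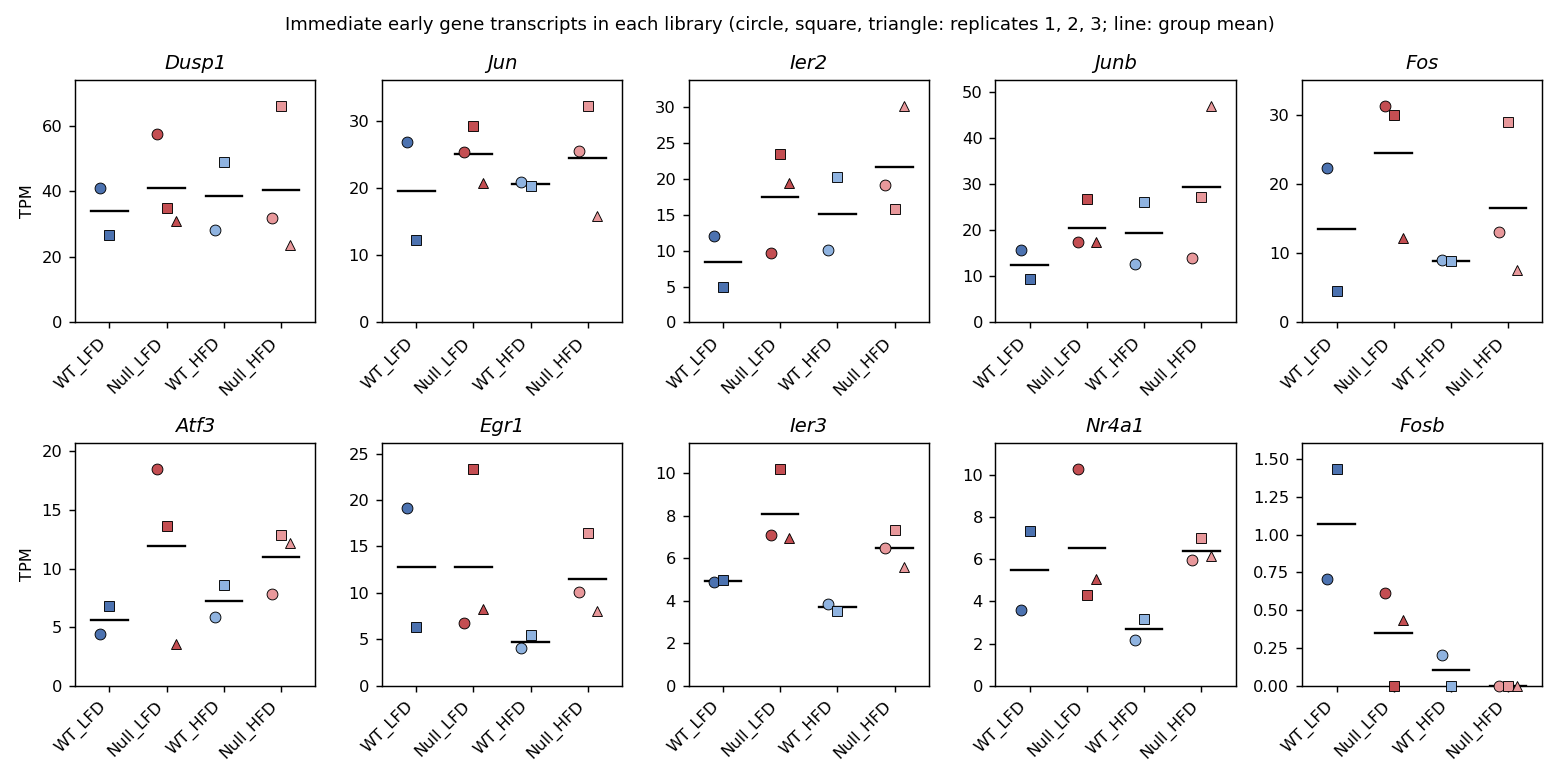
TPM (vertical axes, each from 0) of the 10 immediate early genes in the 4 groups (horizontal axes); circles, squares and triangles are replicates 1, 2 and 3, and lines are group means. Ier3 is the member whose 4 wild-type libraries (at most 4.99 TPM) lie below all 6 FAP-/- libraries (at least 5.56 TPM), while Fosb stays at or below 1.43 TPM.

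Genotype was compared over both diets, with 6 FAP-/- and 4 wild-type libraries, as the labels give the genotype. All 9 tested members were higher in FAP-/- pads, with a median difference of 0.61 on the log2(TPM + 1) scale, and none of them passed the test (limma adjusted p = 0.98 for 8 of them and 0.994 for Dusp1). Fosb, left out by the filter and at most 1.43 TPM, went the other way (-0.38, SE 0.16, with no filter on low values). Among all genes tested 63.5% were higher, with a median of 0.08, and 0% were called at an adjusted p of 0.05. At an unadjusted limma p of at most 0.05 stood 1 of the 9 members, Ier3, and 4.19% of all genes. Without WT_HFD 2 and Null_HFD 3, 9 of 9 members were higher, with a median of 0.72. After median-of-ratios scaling, which brings the median of all genes to 0.02, 9 of 9 were higher with a median of 0.54. In 4 of the 10 fits that left out 1 library each, Dusp1 turned lower and the other 8 stayed higher.

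The Fos family supplies one side of the AP-1 dimer, and Fos itself is made only briefly after a stimulus. Fos (chr12:85473890-85477273) measured 22.4 and 4.58 TPM in WT_LFD, 31.4, 30.1 and 12.2 TPM in Null_LFD, 9.04 and 8.87 TPM in WT_HFD, and 13.1, 29.0 and 7.58 TPM in Null_HFD. Null_LFD 1, Null_LFD 2 and Null_HFD 2 were the highest libraries and WT_LFD 2 the lowest, and the genotypes overlapped in both diets. The log2 difference of 0.84 (SE 0.49) was made up of 1.05 (SE 0.69) on the low-fat diet and 0.63 (SE 0.69) on the high-fat diet. It rested on the unlike WT_LFD libraries: the averaged difference was 1.36 without WT_LFD 1 and 0.32 without WT_LFD 2, and the low-fat one 2.09 and 0.02. Fosb (chr7:19302696-19310051) was close to absent, with 0.707 and 1.43 TPM in WT_LFD and 0.61, 0 and 0.433 TPM in Null_LFD. On the high-fat diet 1 library, WT_HFD 1, showed it, at 0.203 TPM, and the other 4 were listed at 0. With no filter on low values, Fosb differed by -0.38 (SE 0.16, adjusted p = 0.933) with genotype and by -0.65 (SE 0.16, adjusted p = 0.549) with diet, and neither passed.

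The Jun family supplies the other side of the dimer. Jun (chr4:95049034-95052222, a gene of 1 exon) had the smallest fold range of the 9 tested members, 2.64-fold. It measured 27.0 and 12.2 TPM in WT_LFD, 25.4, 29.3 and 20.8 TPM in Null_LFD, 20.9 and 20.3 TPM in WT_HFD, and 25.5, 32.3 and 15.9 TPM in Null_HFD. The genotypes overlapped on both diets, with a log2 difference of 0.31 (SE 0.26). Junb (chr8:84974484-84978718, also of 1 exon), which can oppose Jun on some targets, measured 15.6 and 9.43 TPM in WT_LFD, 17.5, 26.7 and 17.4 TPM in Null_LFD, 12.6 and 26.2 TPM in WT_HFD, and 14.1, 27.2 and 47.1 TPM in Null_HFD. Low-fat FAP-/- libraries lay above both low-fat wild-type libraries, as with 19.1% of all genes tested, whereas the high-fat groups overlapped. The log2 difference was 0.59 (SE 0.35) over both diets. In the annotation Jun overlaps the antisense gene Junos and Junb overlaps Prdx2 on the opposite strand. Among the other members, Atf3 overlaps Gm24748 on the opposite strand. Dusp1 overlaps 4 genes, among them the protein-coding gene Ergic1 on the opposite strand and AC122252.4 and AC122252.1 on its own. The libraries kept strand, but whether the counting used it is not given in the sources used here.

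Egr1, a zinc finger factor induced by growth factors (chr18:34859823-34864984), measured 19.2 and 6.35 TPM in WT_LFD, 6.74, 23.3 and 8.24 TPM in Null_LFD, 4.03 and 5.45 TPM in WT_HFD, and 10.1, 16.5 and 8.04 TPM in Null_HFD. On the high-fat diet the FAP-/- libraries lay above the wild-type ones without overlap, as with 7.73% of all genes tested, and the low-fat genotypes of Egr1 overlapped. Its genotype difference was -0.02 (SE 0.57) on the low-fat diet and 1.08 (SE 0.57) on the high-fat diet, and the difference between them, 1.10 (SE 0.81, adjusted p = 1.00), did not pass. Nr4a1, an orphan nuclear receptor induced by adrenergic signals in fat (chr15:101254269-101274795), showed the same arrangement. It measured 3.62 and 7.33 TPM in WT_LFD, 10.3, 4.31 and 5.05 TPM in Null_LFD, 2.19 and 3.17 TPM in WT_HFD, and 5.97, 7.02 and 6.16 TPM in Null_HFD. The high-fat genotypes again did not overlap, with a log2 difference of 1.02 (SE 0.40, limma adjusted p = 1), and the interaction was 0.81 (SE 0.56, adjusted p = 1.00).

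Atf3, a factor of the stress response that acts largely as a repressor (chr1:191170296-191218039), measured 4.45 and 6.82 TPM in WT_LFD, 18.5, 13.6 and 3.53 TPM in Null_LFD, 5.83 and 8.60 TPM in WT_HFD, and 7.86, 12.8 and 12.2 TPM in Null_HFD. Null_LFD 3 was the lowest library of all, so the low-fat groups overlapped, and the log2 difference over both diets was 0.64 (SE 0.40). Ier2, a small nuclear regulator (chr8:84661331-84662852, of 1 exon), measured 12.1 and 4.87 TPM in WT_LFD, 9.73, 23.4 and 19.4 TPM in Null_LFD, 10.1 and 20.2 TPM in WT_HFD, and 19.1, 15.8 and 30.1 TPM in Null_HFD. Its groups overlapped on both diets, with a log2 difference of 0.76 (SE 0.35).

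Ier3, a stress-inducible regulator of cell survival (chr17:35821684-35822923), was the member with the steadiest separation. It measured 4.90 and 4.99 TPM in WT_LFD, 7.10, 10.2 and 6.94 TPM in Null_LFD, 3.83 and 3.54 TPM in WT_HFD, and 6.50, 7.32 and 5.56 TPM in Null_HFD. No FAP-/- library overlapped a wild-type one, on either diet or across them. Of all genes tested, 0.543% were separated in that direction across the 10 libraries, 19.1% on the low-fat diet and 7.73% on the high-fat diet. The log2 difference was 0.63 (SE 0.19, limma adjusted p = 0.98), a 1.68-fold difference between the means, and was 0.59 (SE 0.27) on the low-fat diet and 0.67 (SE 0.27) on the high-fat diet. With median-of-ratios scaling the genotypes stayed apart within each diet but overlapped across diets, with 5.82 as the highest scaled wild-type value and 5.27 as the lowest scaled FAP-/- value.

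Dusp1, a phosphatase that inactivates MAP kinases and so closes the response (chr17:26505590-26562128), measured 40.9 and 26.8 TPM in WT_LFD, 57.4, 35.0 and 30.9 TPM in Null_LFD, 28.1 and 48.9 TPM in WT_HFD, and 31.7, 66.0 and 23.7 TPM in Null_HFD. The groups overlapped on both diets, and the log2 difference of 0.12 (SE 0.32) was the narrowest of the 9.

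Within the low-fat diet 8 of 9 members were higher in FAP-/- pads (median 0.59, against 0.15 for all genes, of which 66.9% were higher), and 0 of 9 were called by limma, with 0% of all genes called. At an unadjusted p of at most 0.05 stood 0 of 9 members and 4.43% of all genes. Junb and Ier3 were the 2 members of 9 whose groups did not overlap, higher in FAP-/- pads, against 19.1% of all genes, so that share is near the background. Without WT_LFD 2, 6 of 9 were higher, with a median of 0.34. Within the high-fat diet 8 of 9 were higher (median 0.54, against 0.02 for all genes, of which 52.1% were higher), and 0 of 9 were called, with 0.0118% of all genes called. At an unadjusted p of at most 0.05 stood 2 of 9 members, Ier3 and Nr4a1, and 3.82% of all genes. Egr1, Ier3 and Nr4a1 were the 3 members of 9 without overlap there, against 7.73% of all genes, and Atf3 joined them after median-of-ratios scaling. The difference of Junb (0.50) was 0.0054 without WT_HFD 1, 1.00 without WT_HFD 2, 0.93 without Null_HFD 1 and 0.10 without Null_HFD 3. That of Ier2 (0.52) was 0.05, 0.99, 0.58 and 0.26 without the same libraries. Without WT_HFD 2 and Null_HFD 3 all 9 lay higher in the 2 FAP-/- libraries than in the 1 wild-type library left, as did 38.4% of all genes. The averaged comparison is built from the same libraries as these, so the 3 do not stand as separate evidence.

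**Figure D2:**
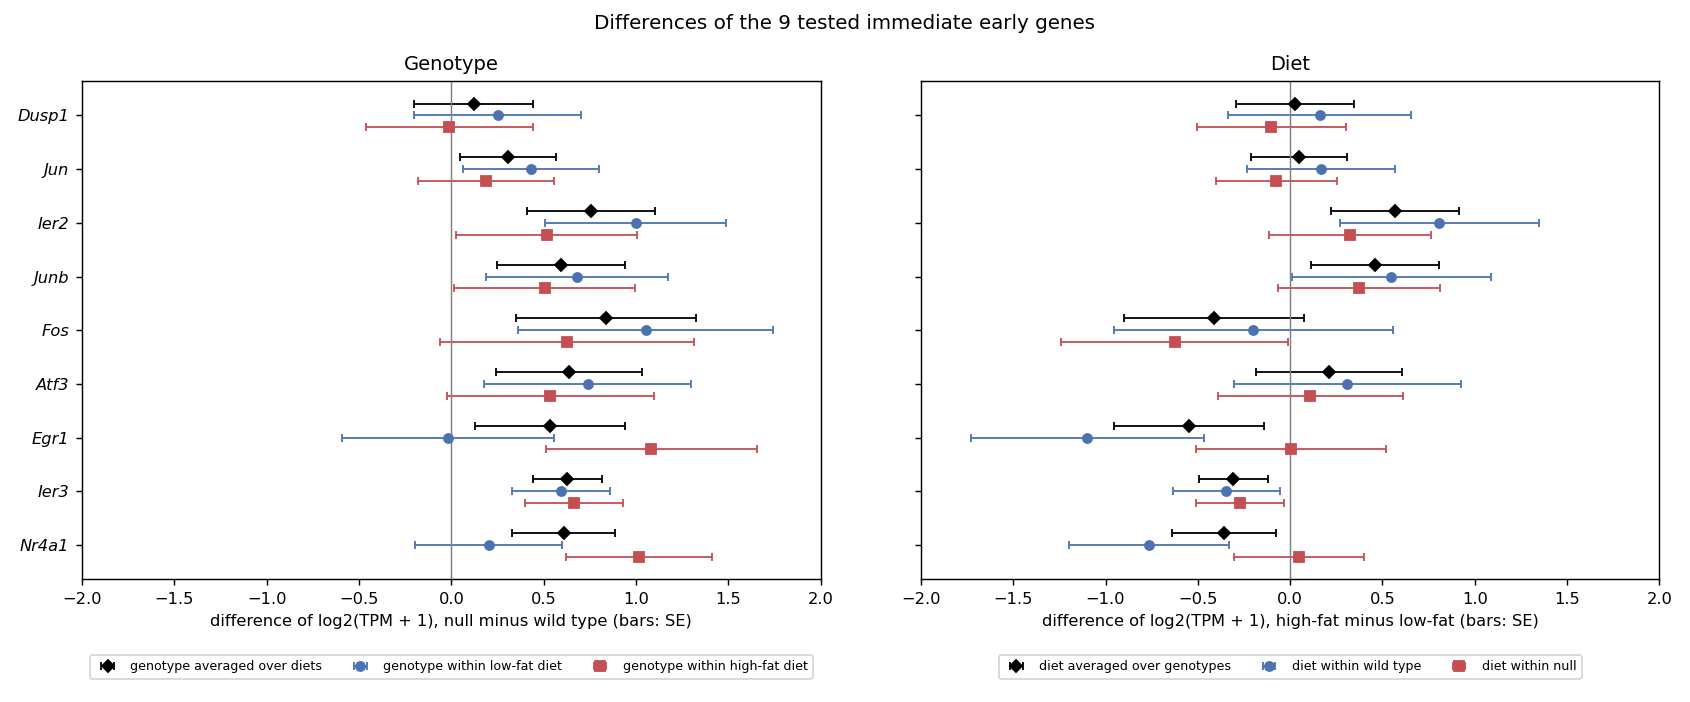
Differences of log2(TPM + 1) (horizontal axes) of the 9 tested members (vertical axis) between genotypes (left) and between diets (right), averaged and within each diet or genotype; bars are SE. Averaged genotype differences run from 0.12 (Dusp1) to 0.84 (Fos), all above 0, while averaged diet differences lie on both sides of 0, from -0.55 (Egr1) to 0.57 (Ier2).

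Between the diets the members lay on both sides of 0. The difference of high-fat from low-fat pads, as a mean of both genotypes, was above 0 for 5 and below 0 for 4 of the 9, with a median of 0.03 against 0.11 for all genes, of which 63.4% were higher. None passed (limma, lowest adjusted p 0.557), and 0% of all genes were called. At an unadjusted p of at most 0.05 stood 0 of 9 members and 9.69% of all genes. With median-of-ratios scaling Jun and Dusp1 crossed 0, and 3 of 9 were higher. Ier2 (0.57, SE 0.35), Junb (0.46, SE 0.35) and Atf3 (0.21, SE 0.40) lay on the higher side under both scalings. Both lymph node-rich libraries are high-fat, and without them the difference was 0.20 for Ier2, 0.0074 for Junb and 0.04 for Atf3. Egr1 (-0.55, SE 0.41), Fos (-0.41, SE 0.49), Nr4a1 (-0.36, SE 0.28) and Ier3 (-0.31, SE 0.19) lay on the lower side.

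In wild-type mice 5 of 9 members were higher on the high-fat diet (median 0.16, against 0.20 for all genes, of which 67.1% were higher), and 0% of all genes were called. At an unadjusted p of at most 0.05 stood 0 of 9 members and 5.61% of all genes. For Egr1, Nr4a1 and Ier3 both WT_HFD libraries lay below both WT_LFD libraries, with differences of -1.10 (SE 0.63), -0.77 (SE 0.43) and -0.35 (SE 0.29). With 2 libraries a group, 11.5% of all genes tested were separated in that direction, and none of the 3 passed (adjusted p = 0.761 for Egr1 and Nr4a1 and 0.767 for Ier3). In FAP-/- mice 5 of 9 were higher (54.9% of all genes), by -0.63 to 0.37 with a median of 0.00, and none was called (0.00591% of all genes). At an unadjusted p of at most 0.05 stood 0 of 9 members and 6.67% of all genes. No member separated the diets there, against 6.6% of all genes higher and 4.49% lower. With median-of-ratios scaling Ier3 did, lower on the high-fat diet. The genotype by diet interaction was above 0 for 3 of 9 members and 38.2% of all genes. Single libraries turned that count: it was 8 of 9 without WT_LFD 2 (43.8% of all genes), 6 of 9 without WT_HFD 2, and 5 of 9 without Null_LFD 2, Null_HFD 1 or Null_HFD 3. It called no member and 0% of all genes, and at an unadjusted p of at most 0.05 stood 0 of 9 members and 4.14% of all genes.

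The order of the libraries differed from member to member. Each gene was centred on its mean over the 10 libraries. The mean of the 9 tested members was then highest in Null_HFD 2 (0.54), Null_LFD 2 (0.53) and Null_LFD 1 (0.33) and lowest in WT_LFD 2 (-0.62) and WT_HFD 1 (-0.57). All 9 members were above their own mean in Null_HFD 2, and 0 of 9 in WT_HFD 1. WT_LFD 2 held the lowest value of 4 members, Fos, Jun, Junb and Ier2, yet its Nr4a1 was 0.44 above that gene's mean. The closest pair, by mean absolute difference of the centred values over the 10 libraries, was Junb and Ier2 (0.31), and the most distant was Fos and Ier2 (0.78).

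**Figure D3:**
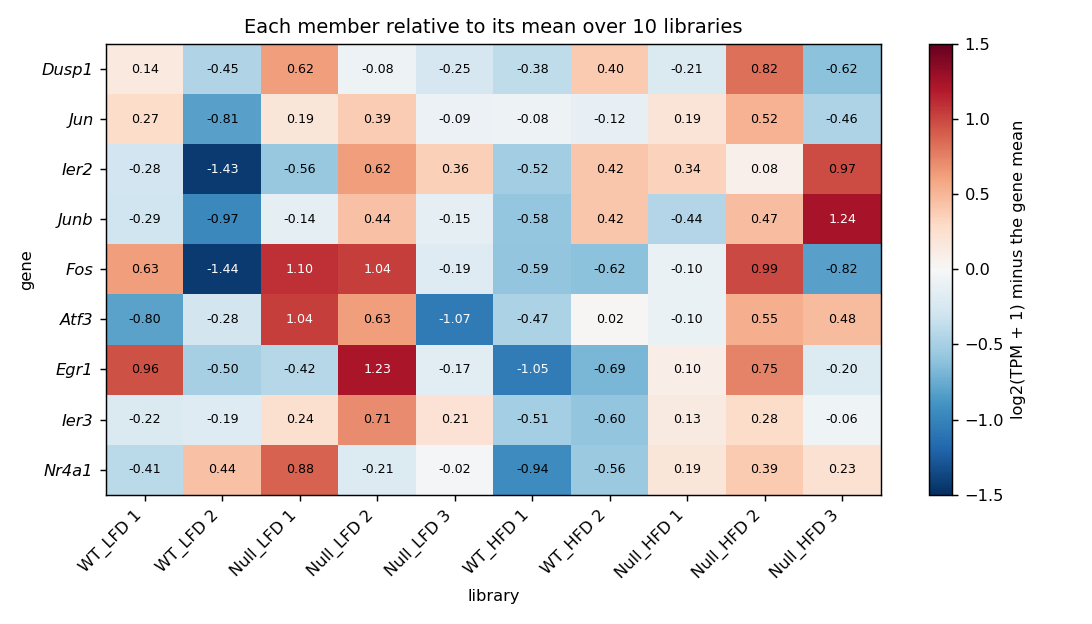
Heat map of log2(TPM + 1) minus the gene mean over 10 libraries (colour scale, with the value printed in each cell) for the 9 tested members (rows) and the 10 libraries (columns). Null_HFD 2 is above 0 in every row and WT_HFD 1 below 0 in every row, whereas Null_HFD 3 runs from -0.82 for Fos to 1.24 for Junb.

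Null_HFD 3 and WT_HFD 2, the libraries rich in lymph node markers, had unlike levels of the AP-1 genes. Null_HFD 3 held the highest Junb (47.1 TPM) and Ier2 (30.1 TPM) of the series together with the lowest Dusp1 (23.7 TPM) and the second-lowest Fos (7.58 TPM). The ratio of Junb to Fos TPM was 6.21 in Null_HFD 3 and 2.96 in WT_HFD 2, against 0.557 to 2.06 in the other 8 libraries. The ratio of Ier2 to Fos was 3.98 and 2.28 there, against 0.31 to 1.59. Null_HFD 3 and WT_HFD 2 also had the highest macrophage marker sums (1939 and 1019 TPM, against up to 1009 TPM elsewhere). Their skeletal muscle marker sums were the lowest (84.6 and 183 TPM, against at least 1607 TPM elsewhere). The part of lymph node or other cell content in these ratios was not tested.

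Skeletal muscle markers were highest in the libraries with the highest member means. The 10 markers summed to 8142, 5637 and 4412 TPM in Null_LFD 1, Null_LFD 2 and Null_HFD 2, the 3 libraries with the highest member means, and to 84.6 to 2799 TPM in the other 7. Those 7 showed no such order, as Null_HFD 3 had the fewest muscle markers (84.6 TPM) with a member mean of 0.08, and WT_HFD 1 had 2362 TPM with -0.57. All 10 markers were higher in FAP-/- pads over both diets (median 1.00), as were 63.5% of all genes. On the low-fat diet 10 of 10 were higher (median 1.36) and on the high-fat diet 9 of 10 (median 0.62), with none called. By genotype the sum ranged from 183 to 2362 TPM in wild-type pads, and from 84.6 to 8142 TPM in FAP-/- pads. None of the 10 markers was listed at 0 in any library (lowest value 0.524 TPM). The part of muscle content in the genotype differences was not tested.

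Other cell type markers went in both directions between the genotypes within a diet. In FAP-/- pads 66.9% of all genes were higher on the low-fat diet and 52.1% on the high-fat diet. On the low-fat diet 8 of 8 luminal epithelium markers were higher in FAP-/- pads (median 1.48), with sums of 460 and 991 TPM in wild-type libraries against 1434 to 2635 TPM. On the high-fat diet 8 of 8 were lower (median -1.09). Basal epithelium markers were higher in 4 of 4 on the low-fat diet and in 1 of 4 on the high-fat diet, and macrophage markers in 6 of 7 and 5 of 7. Adipocyte markers were higher in 2 of 8 and 3 of 8, fibroblast markers in 1 of 6 and 0 of 6. For endothelium the counts were 1 of 6 and 4 of 6, and for neutrophils and mast cells 0 of 6 and 3 of 6. Smooth muscle and pericyte markers were higher in 4 of 6 on each diet, and Schwann cell markers in 1 of 4 on each. None of these markers was called, and their part in the members' differences was not tested. Heat shock genes, a sign of cell stress, were higher in FAP-/- pads in 6 of 8 on the low-fat diet (median 0.35), in 3 of 8 on the high-fat diet (median -0.16) and in 4 of 8 over both (median 0.02).

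**Figure D4:**
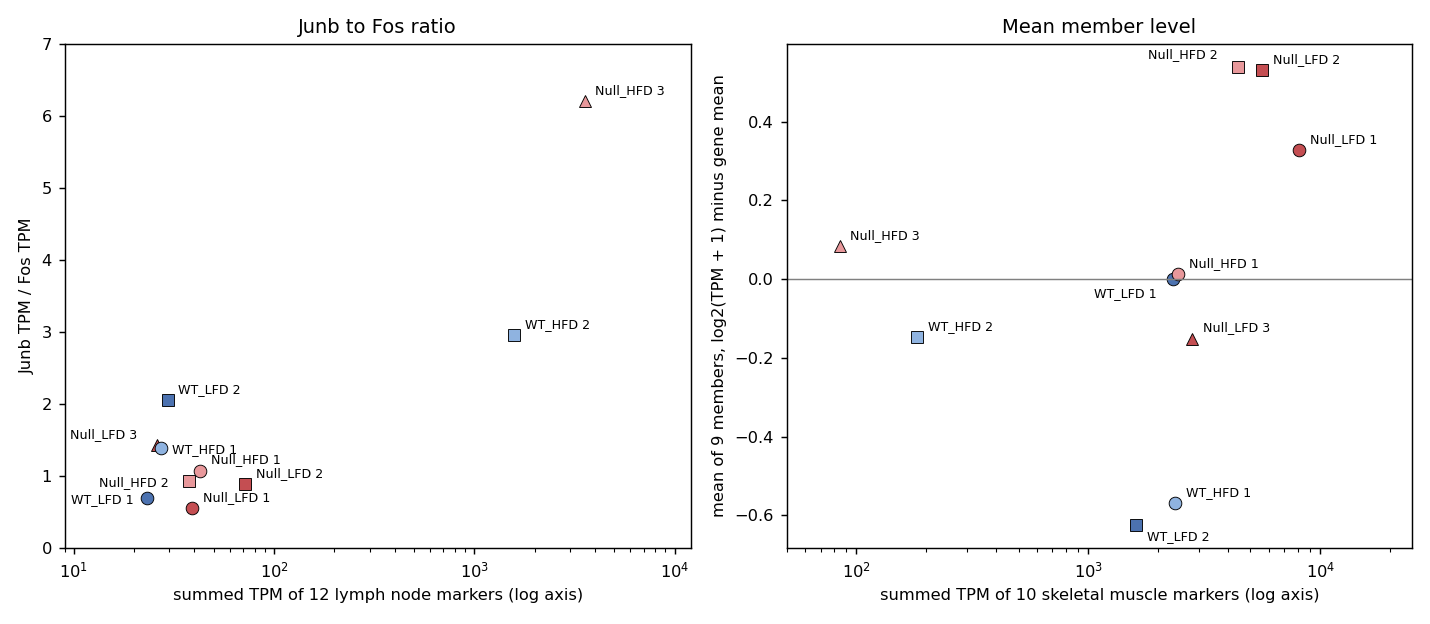
Left, ratio of Junb to Fos TPM (vertical axis) against the summed TPM of 12 lymph node markers (log axis); right, mean centred log2(TPM + 1) of the 9 tested members against the summed TPM of 10 skeletal muscle markers (log axis); each point is 1 library. The highest ratios, 6.21 and 2.96, belong to the libraries with the most lymph node markers, which also had the lowest muscle marker sums. The member means above 0.3 belong to the 3 libraries with the most muscle markers.

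Genes around the members in the same pathways were described from lists, with genotype averaged over the diets. In that comparison 63.5% of all genes tested were higher in FAP-/- pads, with a median of 0.08. Among 10 other early transcription factors, 10 were higher in FAP-/- pads (median 0.24) and none passed. They include Egr2, a relative of Egr1, which ran from 0.91 to 7.48 TPM in the 4 libraries labelled wild type and from 2.31 to 34.7 TPM in the 6 labelled FAP-/-. Of 8 AP-1 partners 5 were higher (median 0.14) and none passed. Batf3, an AP-1 factor of dendritic and T cells, ran from 1.45 to 3.24 TPM in wild-type and from 3.31 to 8.21 TPM in FAP-/- libraries. Its genotypes did not overlap (log2 difference 1.02, SE 0.24, limma adjusted p = 0.721), as with 0.543% of all genes tested in that direction. Of 13 feedback regulators 10 were higher (median 0.37) and none passed. These include the MAP kinase phosphatase gene Dusp5 (0.76, SE 0.42) and Spry4, an inhibitor of growth factor signalling (0.59, SE 0.33). Without both lymph node-rich libraries they stood at 0.46 and 0.91.

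All 14 upstream kinases and factors were higher in FAP-/- pads, by 0.01 to 0.47, and none passed. Their median of 0.14 lay near the 0.08 of all genes, of which 63.5% were higher. The stress kinase Mapk14 was the member with the smallest p (0.25, SE 0.12). Of the secreted and matrix targets, 9 of 10 could be tested, as Il6 was listed at 0 in all 10 libraries, and all 9 were higher (median 0.33) with none passing. Thbs1, which encodes the matrix protein thrombospondin 1, differed by 1.28 (SE 0.57), and by 2.09 without both lymph node-rich libraries. The chemokine gene Ccl2 differed by 0.82 (SE 0.37). The members' median of 0.61 stands beside these, and the difference was not tested. Without both lymph node-rich libraries the targets' median was 0.67 and the members' 0.72.

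Between the diets 10 of 13 feedback regulators were higher on the high-fat diet (median 0.52) and none passed. Of all genes 63.4% were higher there, with a median of 0.11. The 12 lymph node markers were all higher there too (median 2.32), through WT_HFD 2 and Null_HFD 3. Without those libraries 9 of 13 feedback regulators were higher, with a median of 0.13. Btg2, an antiproliferative early gene, did not overlap between the diets, with 15.4 to 26.1 TPM on the low-fat and 27.4 to 83.9 TPM on the high-fat diet (0.88, SE 0.31, adjusted p = 0.513). Of all genes tested, 1.59% were separated in that direction. Gadd45b, a stress sensor, measured 2.36 to 9.28 and 7.04 to 43.4 TPM (1.55, SE 0.54). The upstream genes Mapk14 (0.42, SE 0.12) and Elk3, a ternary complex factor that binds with serum response factor (0.45, SE 0.17), were also separated by diet, each with an adjusted p of 0.513. Without the lymph node-rich libraries the differences were 0.55 for Btg2, 0.79 for Gadd45b, 0.39 for Mapk14 and 0.28 for Elk3.

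The genes outside the list whose pattern was closest to the mean centred profile of the 9 tested members were Pla2g12a, Mprip, Ehd4, Nlrx1 and Rabgef1. Their mean absolute difference from that profile over the 10 libraries was 0.154, 0.154, 0.156, 0.16 and 0.166 on the log2(TPM + 1) scale, against a median of 0.398 for the 11874 genes compared. Mprip, a myosin phosphatase-interacting protein gene, ran from 105 to 211 TPM. Among the members, Jun (0.206) and Ier3 (0.231) lay nearest to their mean profile, and Ier2 (0.488) and Fos (0.472) farthest from it. Although each member is part of that mean, 73.8% of the other genes compared lay closer to it than Ier2, 70.8% closer than Fos, 55.8% closer than Egr1 and 55.5% closer than Nr4a1.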

How the data were processed

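RNA of 10 fat pads was sequenced by the submitters from a stranded total RNA kit with ribosomal depletion, per the labels' protocols. The deposited values are log2(TPM + 1) per gene symbol, a unit inferred from the values, since back-transformed libraries totalled between 946188 and 954515 TPM. The tools kallisto and limma and the build GRCm38 are named per the submitters' processing notes, without versions or roles. Of 30320 lines 1 had no symbol (0.00544% to 0.0108% of TPM) and was not used. Depth is unknown.

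The filter kept genes that reached 1 TPM in 2 or more libraries. One model of 4 group means, with a variance trend and 6 residual degrees of freedom, was fitted by limma version 3.58.1 under R 4.3.3. Tests were two-sided, with Benjamini-Hochberg adjustment over all 16932 genes of each of 7 comparisons and a threshold of 0.05. p-values measure the spread between these libraries. The fit was also run on simulated data with noise drawn separately for each gene, and no result here rests on that run. Differences on the log2(TPM + 1) scale understate changes of low genes. Positions are GENCODE M21 (GRCm38), and promoters RefSeq.

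Members, pathway lists and marker lists were chosen with earlier results of these data known. Named pathway genes are up to 3 with the smallest genotype p and up to 2 with the smallest diet p of each list, among genes averaging 5 TPM or more in 1 group, and only part of them is given. The 5 genes of most similar pattern needed a mean of 5 TPM over all libraries. Alternatives changed the pseudocount, filter, scaling, weights, variance trend, libraries and replicate block.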

Additional observations from a re-analysis of the deposited data

How the results depend on the processing

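No member was called in any fit run, with 19 alternatives in all 7 comparisons and a fit of only the groups compared in 4 of them. Over all genes the number called moved from 0 to 15 without the filter on low values and to 5 without the variance trend for genotype over both diets, and from 2 to 18 without the filter for genotype on the high-fat diet; in the other fits of all 7 comparisons it was at most 5. The number of members called stayed at 0 with the replicate block. For same-numbered libraries, across-gene correlations of their deviations from group means ran from -0.346 to 0.412. In a group of 2 libraries the deviations mirror each other, so correlations with a wild-type library cannot show whether the numbers pair libraries. Between Null_LFD and Null_HFD, with 3 libraries each, they were 0.145, -0.0238 and 0.0963 for replicates 1, 2 and 3. Pairing was not tested further. Leaving out 1 library at a time, the median difference of the members ranged from 0.425 to 0.706 for genotype over both diets, 0.344 to 0.71 on the low-fat diet and 0.291 to 0.783 on the high-fat diet. For diet it ranged from -0.178 to 0.167 on average, -0.334 to 0.456 in wild type and -0.262 to 0.0689 in FAP-/- mice, and for the interaction from -0.513 to 0.16. The value of -0.334 came without WT_LFD 2 and lay farther from the reported 0.16 than the spread between replicates. Several differences changed sign. For Egr1 on the low-fat diet the value was 0.168 with array quality weights and 0.181 with the block. For Dusp1 on the high-fat diet it was 0.233 with weights, 0.231 with the block and 0.685 without both lymph node-rich libraries. Between diets Dusp1 was at -0.102 with median-of-ratios scaling and -0.0112 without those libraries, and Jun at -0.0798 with that scaling. Leaving out single libraries, genotype differences that changed sign ranged from -0.0861 to 0.314 for Dusp1 over both diets, -0.0445 to 0.547 for Dusp1, -0.11 to 0.971 for Jun, -0.747 to 0.71 for Egr1 and -0.224 to 0.627 for Nr4a1 on the low-fat diet, and -0.424 to 0.377 for Dusp1 and -0.0297 to 0.46 for Jun on the high-fat diet. Diet differences ranged from -0.929 to 0.105 for Fos, -0.223 to 0.317 for Jun, -0.107 to 0.42 for Atf3 and -0.178 to 0.223 for Dusp1, and the interaction of Ier3 from -0.0133 to 0.234. The cause was not tested. Where leaving out a library left 1 in a group, it is assumed to vary like the others.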
